A study of Homo sapiens with 24 samples.

Results

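The effect of depleting KDM5C and YY1 together was compared between 2 human kidney cell lines, ACHN and HK-2 (HK2 in the sample labels), by RNA-seq. The members were the 12 libraries, of 24 in the series, that carried either the control hairpin (labelled shNC, here shCtrl) or the hairpins against both genes (labelled Dsh, here double knockdown), with 3 libraries in each of the 4 groups. The other 12 libraries held cells with a single knockdown. The comparison was the double knockdown minus shCtrl difference in ACHN, the same difference in HK-2, and the first minus the second, so that each gene could be placed as lowered in both lines, raised in both, or moved in opposite directions.

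KDM5C is a histone demethylase that removes methyl groups from the histone H3 tail at promoters and enhancers, and is lost in a share of clear cell renal carcinomas. YY1 is a zinc finger transcription factor that can activate or repress, that binds near the start of many housekeeping genes and that also serves in Polycomb and INO80 complexes. The study asked how the partnership of these proteins bears on the growth of tumour cells, and the comparison here asks how far a carcinoma line and a non-tumour kidney line shared their response.

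ACHN is a renal carcinoma line, labelled ccRCC, that was first derived from a metastasis, and HK-2 is a proximal tubule line that was immortalised with papillomavirus oncogenes known to disable p53 and RB. Stable pools were made with lentiviral hairpins and puromycin. For the double knockdown, YY1-depleted cells received a second, GFP-marked plasmid against KDM5C and were also selected by green fluorescence, and the sources do not say which selection the shCtrl cells went through, although a GFP-marked control plasmid is listed. The part of the selection in the results was not tested. The sources name neither the hairpin used for each target nor the number of pools. They also do not say whether the 3 libraries of a group came from separate cultures, so the p-values measure only the spread between these libraries. In bulk RNA, fewer cells of a state and less RNA per cell cannot be told apart.

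Libraries held between 16675904 and 24272298 counted read pairs, and 18087 genes passed the filter on low counts. The first principal component held 75.7% of the variance and separated the lines, and the second held 11.3% and separated the double knockdown from shCtrl in both. Of 10 kidney epithelial markers, 9 or 10 averaged at least 1 CPM (counts scaled to a common library size) in each group. Their summed level was 2473 to 2507 CPM in ACHN shCtrl and 1706 to 1861 in its double knockdown, and 3664 to 3779 against 2146 to 2258 in HK-2. The transcription factor PAX8 was above 100 CPM in every group. PAX2 averaged 28.4 and 5.42 CPM in ACHN and 9.90 and 1.85 in HK-2, and CDH6 was below 1 CPM in both ACHN groups. Most proximal tubule markers were near 0, with LRP2, CUBN, SLC34A1, AQP1 and ANPEP all below 1 CPM in every group and SLC22A6 at 0 in all 12 libraries. The glucose transporter SLC5A2 averaged 0.65 to 2.39 CPM in the 4 groups, the peptidase MME 1.19 and 1.37 in ACHN but 17.6 and 33.0 in HK-2, and GGT1 71.3 or more in each group. Of 8 markers of clear cell renal carcinoma, the type on the ACHN label, 6 reached 1 CPM in ACHN shCtrl and 4 in its double knockdown. In HK-2 5 and 8 did. The summed level of these 8 markers was 805 to 830 CPM in ACHN shCtrl and 1319 to 1344 in its double knockdown. In HK-2 it was 535 to 556 CPM in shCtrl and 853 to 913 in the double knockdown. CA9 and CP averaged below 1 CPM in both ACHN groups. VIM averaged 686 CPM in ACHN shCtrl and 957 in its double knockdown, ANGPTL4 5.34 and 275, and SLC17A3 1.67 and 20.1. Lower in the ACHN double knockdown were VEGFA (120 and 78.9), NDUFA4L2 (1.44 and 0.70) and EGLN3 (1.42 and 0.63). Of 7 endothelial and 8 leukocyte markers, at most 1 and 2 reached 1 CPM in any group. Of 8 fibroblast markers, 3 or 4 reached 1 CPM in each group: their summed level was 925 to 1016 CPM in ACHN shCtrl and 274 to 299 in ACHN double knockdown, and 45.3 to 46.3 against 96.2 to 105 in HK-2. COL1A1, THY1 and PDGFRB averaged 589, 349 and 32.0 CPM in ACHN shCtrl and 137, 141 and 7.79 in its double knockdown. LUM averaged 10.7 CPM in HK-2 shCtrl and 62.0 in its double knockdown, and DCN 0.15 and 7.35. COL1A2, COL3A1 and PDGFRA were below 1 CPM in every group. The part of other cell types in the results was not tested.

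Both targets were lower in the double knockdown of each line, but by less in ACHN. KDM5C stood at 71.6, 71.8 and 70.8 CPM in ACHN shCtrl and at 40.8, 42.01 and 41.2 in the double knockdown, while HK-2 held 195, 193 and 198 and 68.5, 66.4 and 72.6. The log2 fold changes were -0.79 ± 0.054 (SE) and -1.499 ± 0.050, and they differed by 0.71 ± 0.073 (adjusted p = 3.7e-11, edgeR quasi-likelihood test with Benjamini-Hochberg adjustment, as for all adjusted p-values here). YY1 read 136, 140.3 and 144 CPM in ACHN shCtrl and 92.1, 106 and 97.8 after the knockdown, against 216, 218 and 204 and 76.3, 76.1 and 73.4 in HK-2. Its log2 fold changes were -0.51 ± 0.050 and -1.498 ± 0.051, which differed by 0.99 ± 0.071 (adjusted p = 6.1e-16). Groups did not overlap for either target in either line, and HK-2 began from the higher level of both and ended with the lower level of YY1. The depth of the knockdown therefore differed between the lines beside every comparison below, and its part in them was not tested. KDM5B, the paralog of KDM5C, rose in both lines by 0.83 ± 0.048 and 0.60 ± 0.047. KDM5A rose in ACHN (0.22 ± 0.054) and read 0.00 ± 0.056 in HK-2. With all 24 libraries in the fit the ACHN call of KDM5A (adjusted p = 0.23) and the differences between lines of KDM5A (0.47) and KDM5B (0.42) were lost. YY2, a retrogene relative of YY1 that shares 39.9% of its exon bases with MBTPS2, was low, between 1.42 and 4.90 CPM on average in the 4 groups, and read 1.12 ± 0.26 in ACHN and -0.44 ± 0.23 in HK-2 (adjusted p for the difference = 2.3e-04).

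In ACHN 5195 genes were called lower (28.7% of those tested) and 5062 higher (28%), with a call meaning an adjusted p under 0.05. In HK-2 4323 were lower (23.9%) and 4125 higher (22.8%). At a log2 fold change of at least 1.5 in size, here called large, ACHN had 1077 lower (5.95%) and 569 higher (3.15%) and HK-2 434 lower (2.4%) and 470 higher (2.6%). Both lines thus changed widely, and ACHN had the greater number of large falls. Across genes with at least 1 CPM in a group of each line, the median absolute log2 fold change was 0.36 in ACHN and 0.29 in HK-2.

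Genes lowered in both lines numbered 1992 (11%), and genes raised in both 1974 (10.9%). Another 874 (4.83%) were lower in ACHN and higher in HK-2, and 915 (5.06%) were higher in ACHN and lower in HK-2. Of the genes called lower in ACHN, 38.3% were also called lower in HK-2 and 16.8% were called higher there. Of those called lower in HK-2, 46.1% were lower in ACHN and 21.2% higher. For the genes called higher the shares with the same call were 39.0% of the ACHN genes and 47.9% of the HK-2 genes. Large in both lines were 133 lowered (0.735%), 79 raised (0.437%), 35 lower in ACHN and higher in HK-2 (0.194%) and 10 of the reverse (0.0553%). The difference between the lines was itself called for 4114 genes with the lower effect in ACHN (22.7%) and 4238 with the higher (23.4%). That difference was called for 871 of the genes lowered in both, of which 547 changed more in ACHN, and for 939 of those raised in both, of which 565 changed more in ACHN. Over all 18087 genes Pearson's r between the effects was 0.21 and the rank correlation 0.22, and over the 13754 with at least 1 CPM in a group of each line these were 0.33 and 0.29. Both are descriptions across genes that are not independent and that share normalisation.

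**Figure D1:**
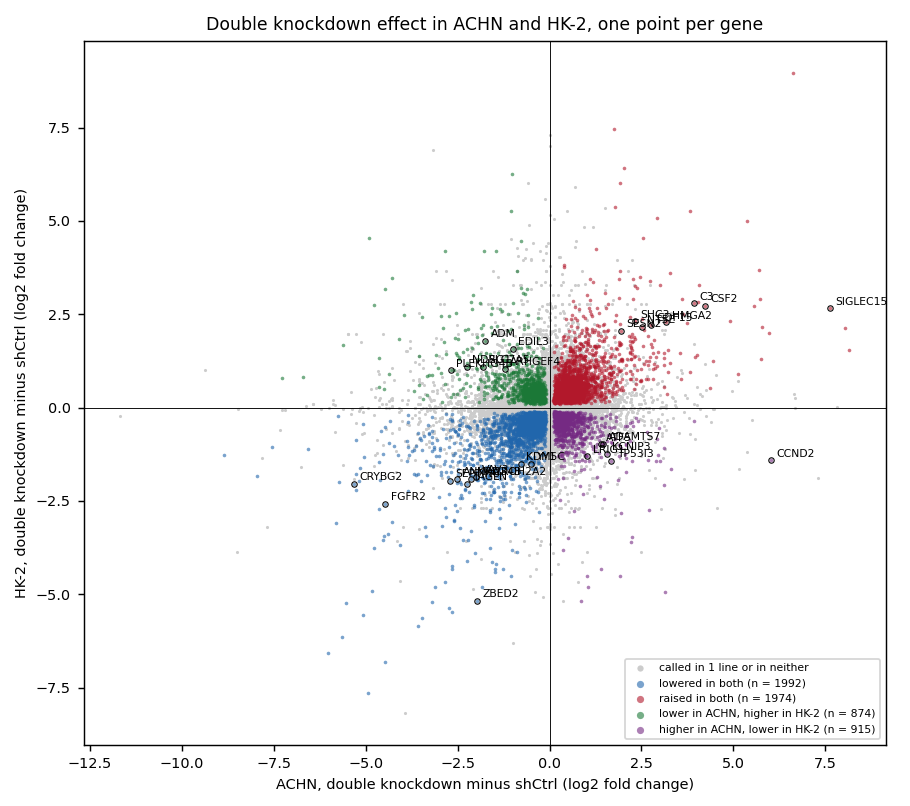
Log2 fold change of the double knockdown against shCtrl in ACHN (horizontal axis) and HK-2 (vertical axis), one point for each of 18087 genes, coloured by direction class, with the genes chosen by size in each class and both targets circled. Points fill all 4 quadrants, with 1992 and 1974 genes on the shared diagonal and 874 and 915 in the opposite quadrants.

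A set of 8 genes stood at the head of those lowered in both, ranked by the smaller of the 2 fold changes among protein-coding genes with at least 10 CPM in each line and no overlap between groups. FGFR2, a receptor for fibroblast growth factors, held 205, 209.9 and 204 CPM in ACHN shCtrl and 8.65, 8.17 and 10.9 in the double knockdown, and 132, 131 and 131 against 25.1, 16.9 and 23.7 in HK-2. Its log2 fold changes of -4.46 ± 0.11 and -2.58 ± 0.099 differed (adjusted p = 2.9e-08), with the greater fall in ACHN. SEPTIN8, a GTP-binding filament protein, fell from 327, 337 and 311 CPM to 50.1, 50.1 and 48.8 in ACHN and from 260.3, 259.8 and 257 to 65.7, 71.7 and 61.4 in HK-2, and shares 14.9% of its exon bases with the antisense gene CCNI2. MACROH2A2, a variant of histone H2A linked to silent chromatin, moved from 49.2, 48.3 and 41.2 CPM to 10.1, 11.2 and 10.5 in ACHN and from 53.8, 57.7 and 54.03 to 14.3, 15.9 and 14.1 in HK-2. The falls of MACROH2A2 were close in size, -2.13 ± 0.088 and -1.90 ± 0.085, and their difference of -0.22 ± 0.12 did not pass the test (adjusted p = 0.14), although it did without the third ACHN shCtrl library (-0.33, adjusted p = 0.033).

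TAGLN, the actin-binding protein transgelin, read -2.25 ± 0.11 in ACHN and -2.04 ± 0.093 in HK-2, and VAV3, a guanine nucleotide exchange factor, read -1.99 ± 0.11 and -1.85 ± 0.076. TAGLN shares 11.4% of its exon bases with the antisense gene PCSK7. For neither TAGLN nor VAV3 was the difference between lines called (adjusted p = 0.22 and 0.42). ANKRD34B fell by more in ACHN (-2.51 ± 0.11 against -1.91 ± 0.085), as did CRYBG2 (-5.33 ± 0.30 against -2.04 ± 0.23), which kept 16, 0 and 9 counts in the ACHN double knockdown. ZBED2, a zinc finger factor, was the exception with the greater fall in HK-2: it went from 12.8, 17.7 and 15.2 CPM to 7, 11 and 3 counts in HK-2 (-5.18 ± 0.20) and from 133, 133 and 135 to 33.04, 34.7 and 34.6 CPM in ACHN (-1.97 ± 0.074).

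Genes of DNA replication fell in both lines. Of 27 genes that license origins or form the replicative helicase, 19 were called lower in ACHN and 22 in HK-2, 16 of them in both, where 11% of all genes tested were lowered in both. The median log2 fold change of the list was -0.58 in ACHN and -0.43 in HK-2, beside 0.00 and -0.01 for all genes. GINS2, a subunit of the helicase, fell from 38.5, 36.3 and 35.3 CPM to 11.1, 8.62 and 10.6 in ACHN and from 40.8, 35.9 and 35.6 to 13.3, 9.45 and 11.5 in HK-2. These were falls of -1.86 ± 0.10 and -1.71 ± 0.10 that the test did not separate (-0.15 ± 0.15, adjusted p = 0.45). MCM4 of the same helicase read -1.08 ± 0.043 and -1.03 ± 0.042, while MCM6 (-1.63 ± 0.051 and -0.95 ± 0.049) and the loading factor CDC6 (-1.33 ± 0.059 and -0.91 ± 0.058) fell by more in ACHN. DBF4, which activates the origin-firing kinase CDC7, was lower in ACHN and higher in HK-2 (-0.59 ± 0.067 and 0.36 ± 0.067).

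Of 30 genes for DNA polymerases, their clamp and the supply of nucleotides, 22 were lower in ACHN (median -0.56) and 26 in HK-2 (median -0.45), and 20 were lowered in both. The shares of all genes were 28.7% lower in ACHN, 23.9% lower in HK-2 and 11% lowered in both. Higher in ACHN and lower in HK-2 were 5.06% of all genes. UHRF1, which guides maintenance methylation, read -0.98 ± 0.047 in ACHN and -0.92 ± 0.047 in HK-2. The histone chaperone subunit CHAF1B fell further in ACHN (-1.25 ± 0.094 against -0.42 ± 0.088). Opposite moves were seen for 3 members: PCNA, the sliding clamp (0.20 ± 0.046 and -0.69 ± 0.046), the ligase LIG1 (0.16 ± 0.062 and -0.63 ± 0.061) and thymidylate synthase TYMS (0.16 ± 0.060 and -0.96 ± 0.061), each higher in ACHN and lower in HK-2. The small ACHN rises of LIG1 and TYMS did not hold in 4 of the 12 fits that left out a library (without ACHN shCtrl 1, 2 or 3 for both, and without the third ACHN double knockdown library for LIG1 and the first for TYMS, adjusted p 0.067 to 0.22). They were also lost with DESeq2 (0.068 and 0.052), with all 24 libraries in the fit (0.29 and 0.34) and without the filter on low counts (0.13 and 0.10). The ACHN rise of PCNA was lost with all 24 libraries (adjusted p = 0.052).

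Mitotic genes fell by less. Of 45 kinases, kinesins and kinetochore genes, 31 were lower in ACHN (median -0.29) and 27 in HK-2 (median -0.20), with 21 lowered in both. Of all genes 28.7% were lower in ACHN, 23.9% in HK-2 and 11% in both. With all 24 libraries in the fit the count of mitotic genes lowered in both was 12. PRC1, which bundles spindle midzone microtubules, went from 136, 132 and 137 CPM to 65.6, 66.4 and 67.95 in ACHN and from 162, 171 and 171 to 99.3, 98.8 and 84.7 in HK-2. Its falls of -1.02 ± 0.053 and -0.83 ± 0.052 differed (adjusted p = 0.036), a call that was lost without the first ACHN double knockdown, the first or second HK-2 double knockdown or the first HK-2 shCtrl library (adjusted p 0.073 to 0.11), with all 24 libraries in the fit (0.11) and with total counts as library sizes (0.086). The kinesin KIF20A read -0.66 ± 0.060 and -0.85 ± 0.056, with an adjusted p for the difference of 0.05 that passed without the third HK-2 double knockdown (0.021) or the second HK-2 shCtrl library (0.024) and in 4 further alternatives (0.021 to 0.048). Opposite moves, lower in ACHN and higher in HK-2, were called for 5 members, among them the kinetochore protein NUF2 (-0.42 ± 0.073 and 0.42 ± 0.071). Of 18 condensin and cohesin genes 12 were lower in ACHN and 13 in HK-2, 11 of them in both, but 4 in both with all 24 libraries in the fit. SMC1A, a cohesin core subunit, fell by more in HK-2 (-1.37 ± 0.047) than in ACHN (-0.83 ± 0.048).

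The study singled out 6 genes from its own experiments, which include these libraries, so their direction here is not independent evidence. JAM3, a junctional adhesion molecule, moved from 42.1, 43.6 and 38.4 CPM to 12.7, 11.5 and 12.9 in ACHN and from 39.03, 42.99 and 45.2 to 15.3, 17.1 and 16.4 in HK-2. Its difference between lines (-0.36 ± 0.12, adjusted p = 0.017) was not called without the first HK-2 shCtrl library (-0.30, adjusted p = 0.054). The condensin subunit SMC2 fell in both (-0.80 ± 0.049 and -0.58 ± 0.048), as did its partner SMC4 (-0.37 ± 0.050 and -0.25 ± 0.049) and the mitotic transcription factor FOXM1 (-0.54 ± 0.046 and -0.52 ± 0.046). The difference between lines was not called for SMC4 (-0.12 ± 0.070, adjusted p = 0.18) or FOXM1 (-0.02 ± 0.065, adjusted p = 0.81), and for SMC4 it was called without the second ACHN double knockdown library (-0.19, adjusted p = 0.011) or without the first ACHN shCtrl library (-0.18, adjusted p = 0.047). KNTC1, a kinetochore checkpoint protein, fell mainly in ACHN (-0.77 ± 0.051 against -0.13 ± 0.050 in HK-2, adjusted p for the difference = 2.8e-10), and its HK-2 call (adjusted p = 0.028) was lost in 6 of the 12 fits that left out a library, where the adjusted p ran up to 0.18, and with DESeq2 (0.052), all 24 libraries in the fit (0.40) or no filter on low counts (0.11). The HK-2 call of SMC4 was lost with all 24 libraries in the fit (adjusted p = 0.12). Reads were counted without strand, and SMC4 shares 25.6% of its exon bases with antisense genes, FOXM1 15.9% and JAM3 8.53%. The lamin LMNB1 had the reverse order, -0.17 ± 0.045 in ACHN and -0.58 ± 0.043 in HK-2.

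The stretch of 120 bases before the RefSeq start is shown for 4 genes that fell in both lines and for HMGCS1, a cholesterol gene described further on, because they carry the letters searched for in all promoters. Capitals mark those letters on either strand: AANATGG and ATGGCGG, which lie in the YY1 site, GCGGGAA of the E2F site, TTTGAA of the cell cycle homology region and CCAAT of the NF-Y site.
SMC4, GRCh38.p14 chr3:160399530-160399649, plus strand: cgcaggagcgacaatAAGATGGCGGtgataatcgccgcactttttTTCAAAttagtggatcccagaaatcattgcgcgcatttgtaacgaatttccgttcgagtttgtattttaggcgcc
GINS2, GRCh38.p14 chr16:85688955-85689074, minus strand: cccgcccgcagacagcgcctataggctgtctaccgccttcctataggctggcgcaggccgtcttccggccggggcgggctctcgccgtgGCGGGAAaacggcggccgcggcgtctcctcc
UHRF1, GRCh38.p14 chr19:4909381-4909500, plus strand: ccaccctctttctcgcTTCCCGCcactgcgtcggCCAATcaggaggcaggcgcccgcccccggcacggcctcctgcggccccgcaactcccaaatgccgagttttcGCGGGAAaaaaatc
PRC1, GRCh38.p14 chr15:90994536-90994655, minus strand: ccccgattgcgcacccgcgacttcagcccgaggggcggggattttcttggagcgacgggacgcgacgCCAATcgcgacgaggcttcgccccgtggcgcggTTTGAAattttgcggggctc
HMGCS1, GRCh38.p14 chr5:43313413-43313532, minus strand: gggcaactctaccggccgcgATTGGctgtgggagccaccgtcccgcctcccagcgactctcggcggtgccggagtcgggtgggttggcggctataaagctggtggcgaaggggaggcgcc
In SMC4 the AANATGG and ATGGCGG matches began 105 and 102 bases before the start and overlap in 1 run of letters, and a TTTGAA match lay on the other strand 75 bases before it. GINS2 held GCGGGAA 31 bases before its start and UHRF1 held it on both strands, 14 and 104 bases before. PRC1 held TTTGAA 20 bases and CCAAT 53 bases before its start.

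Over the 12157 genes tested that had a RefSeq promoter window (250 bases before to 50 after the start), 14.9% held AANATGG and 9.57% ATGGCGG. Among genes lowered in both lines the shares were 16.05% and 9.98%, and among genes raised in both 14.2% and 9.49%. Genes lower in ACHN and higher in HK-2 held them in 11.2% and 6.57%, and genes of the reverse class in 17.4% and 12.7%. At any fold the letters of the YY1 site were about as frequent in the shared classes as in all promoters. Among the 83 promoters of genes large and lowered in both, 10 held AANATGG and 3 ATGGCGG. Among the 45 of genes large and raised in both, 8 and 0 did. GCGGGAA was held by 9.96% of all promoters, by 13.6% of genes lowered in both, by 34.8% of the licensing and helicase list and by 44.4% of the polymerase and nucleotide list. TTTGAA was held by 9.72% of all and by 64.9% of the mitotic list, which also held CCAAT in 75.7% against 36.1% of all. These shares describe letters in a window and carry no test.

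Genes of the epithelial junction and the keratin filaments were another list that mostly fell in both. Of 37 tested, 26 were lower in ACHN (median -0.58) and 24 in HK-2 (median -0.75), and 20 were lowered in both, or 12 with all 24 libraries in the fit. Of all genes 11% were lowered in both. CGN, the tight junction adaptor cingulin, fell from 14.7, 17.3 and 16.2 CPM to 2.36, 2.08 and 1.82 in ACHN and from 26.1, 23.7 and 23.7 to 6.45, 7.37 and 7.27 in HK-2. EPCAM, an epithelial adhesion molecule, read -1.37 ± 0.094 and -1.02 ± 0.076, and keratin KRT8 -0.998 ± 0.042 and -1.19 ± 0.042. CDH16, the kidney cadherin, fell by more in ACHN (-1.69 ± 0.090 against -0.31 ± 0.066, where the HK-2 call was lost with all 24 libraries in the fit, adjusted p = 0.15). Against the list, claudin CLDN1 rose from 159, 169 and 157 CPM to 738, 751 and 707 in ACHN and from 361, 412 and 380.4 to 763, 762 and 761 in HK-2. KRT7 rose in ACHN and fell in HK-2 (0.79 ± 0.10 and -1.07 ± 0.065). Mesenchymal genes had no common direction. Of 19, 9 were higher and 7 lower in ACHN (median 0.09, or 0 without the filter on low counts), and 8 higher and 4 lower in HK-2 (median 0.20), beside 28% and 28.7% of all genes higher and lower in ACHN and 22.8% and 23.9% in HK-2. The 6 raised in both included the repressors ZEB1 (0.38 ± 0.080 and 0.83 ± 0.083) and ZEB2 (0.66 ± 0.062 and 0.97 ± 0.074).

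Among the genes raised in both, C3, the central complement component, stood at 68.7, 70.8 and 54.6 CPM in ACHN shCtrl and 972, 986 and 1025 in the double knockdown, and at 190.0, 193 and 204 and 1286, 1411 and 1362 in HK-2. Its rise was greater in ACHN (3.94 ± 0.076 against 2.79 ± 0.070, adjusted p = 5.4e-08). HMGA2, an architectural chromatin protein of fetal and tumour cells, rose from 40.04, 46.6 and 44.7 CPM to 387, 411 and 386 in ACHN and from 184, 197 and 186 to 898, 954 and 914 in HK-2. The double knockdown libraries of ACHN thereby lay above the HK-2 controls, from controls that lay below them. NT5E, the ectonucleotidase CD73, went from 31.5, 30.7 and 31.4 CPM to 177, 185 and 173 and from 53.03, 66.2 and 50.4 to 257, 235 and 263.

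The difference between the lines was called for some of these rises and not for others. SHC3, a signalling adaptor, read 2.33 ± 0.10 and 2.31 ± 0.099, with a difference of 0.02 ± 0.14, and the stress sensor SESN2 read 1.94 ± 0.060 and 2.05 ± 0.060, with a difference of -0.11 ± 0.085; neither difference was called. The stress cytokine GDF15 rose by more in ACHN (2.76 ± 0.086 against 2.21 ± 0.086), and so did the growth factor CSF2 (4.23 ± 0.20 against 2.72 ± 0.16), from 20, 10 and 19 counts in ACHN shCtrl. SIGLEC15, a sialic acid-binding receptor, went from 10, 4 and 0 counts in ACHN shCtrl to 53.97, 47.03 and 51.2 CPM, and from 4.61, 5.89 and 4.93 CPM to 35.7, 32.2 and 29.9 in HK-2.

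**Figure D2:**
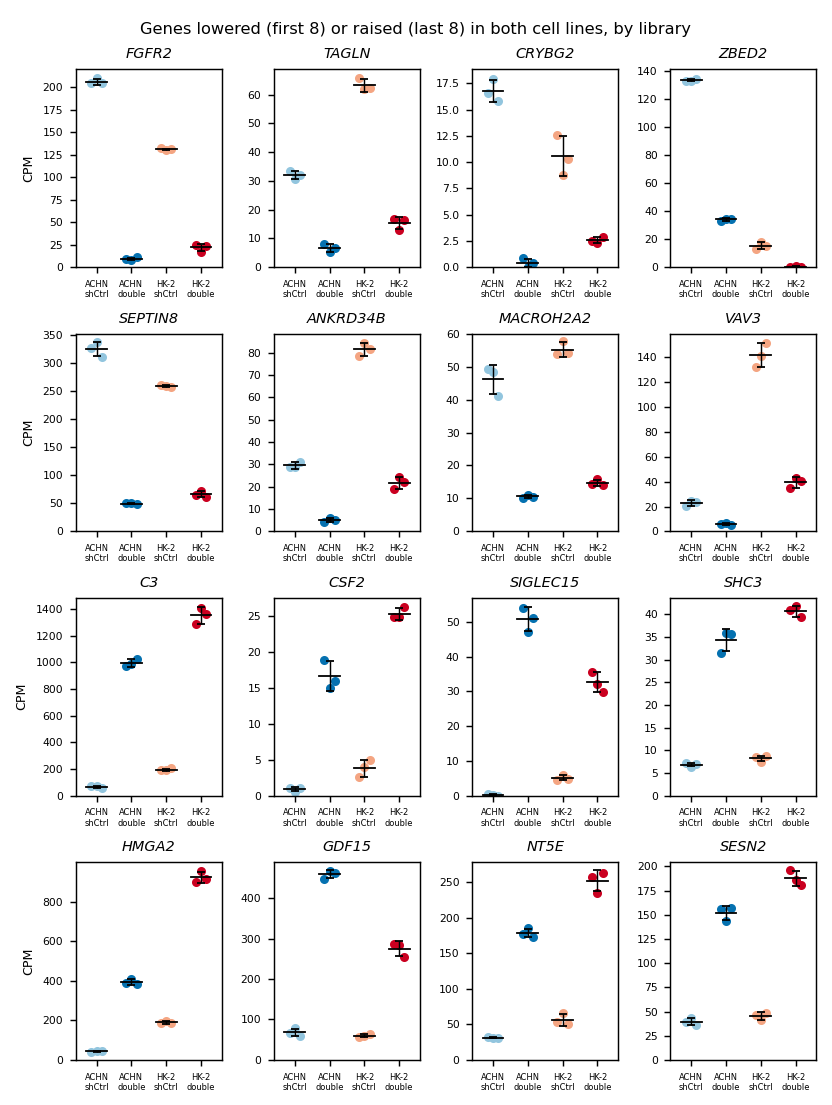
CPM (vertical axes, from 0) of the 8 genes lowered and the 8 raised in both lines in each of the 12 libraries, by group; points are libraries, horizontal lines the mean and whiskers the SD of 3. In every panel the double knockdown libraries of a line lie wholly on one side of its shCtrl libraries, as the choice of genes required, and the FGFR2 double knockdown libraries of ACHN sit between 8.17 and 10.9 CPM.

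NF-kB subunits, inhibitors and the cytokines under their control mostly rose in both lines. Of 32 tested, 24 were higher in ACHN (median 0.97) and 23 in HK-2 (median 0.80), and 19 were raised in both, where 10.9% of all genes were. BIRC3, an inhibitor of apoptosis and NF-kB target, rose from 16.8, 19.3 and 14.5 CPM to 145, 152 and 142 in ACHN and from 31.3, 33.8 and 34.5 to 69.2, 78.3 and 73.2 in HK-2. The macrophage growth factor CSF1 read 2.21 ± 0.062 and 1.59 ± 0.056, and the neutrophil chemokine CXCL8 2.62 ± 0.12 and 1.25 ± 0.071, both with the greater rise in ACHN. The subunit RELB rose in both (1.67 ± 0.089 and 1.38 ± 0.095), while NFKB1 rose in ACHN (0.67 ± 0.056) and read -0.09 ± 0.059 in HK-2. IL11 was lower in ACHN and higher in HK-2 (-1.94 ± 0.30 and 1.74 ± 0.14), and the chemokine CCL2 was the reverse (0.97 ± 0.14 and -0.82 ± 0.18). Of 28 AP-1 and immediate early genes 17 were higher in ACHN and 21 in HK-2, 15 in both, and FOSL1 read 0.86 ± 0.058 and 1.70 ± 0.065. EGR1 went against the list and fell in both lines (-0.35 ± 0.12 and -1.98 ± 0.12), although its ACHN call was lost without the first ACHN double knockdown library or with all 24 libraries in the fit (adjusted p = 0.13 in each).

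Lysosome and autophagy genes mostly rose in each line, 31 of 42 in ACHN (median 0.38) and 34 in HK-2 (median 0.58), with 25 raised in both, where 10.9% of all genes were. The difference between the lines was called for 29 of them, 17 with the lower effect in ACHN and 12 with the higher, and 9 went in opposite directions. Of all genes 22.7% had the lower effect in ACHN and 23.4% the higher. Lower in ACHN and higher in HK-2 were 4.83% of all genes, and the reverse 5.06%. The protease CTSD rose from 215, 212 and 208 CPM to 794, 801 and 869.5 in ACHN and from 605, 557 and 556 to 1487, 1421 and 1249.9 in HK-2. NPC1, which exports cholesterol from the lysosome, read 1.27 ± 0.043 and 1.61 ± 0.043, and the kinase ULK1, which starts autophagy, 1.21 ± 0.057 and 1.12 ± 0.053. The protease CTSH was lower in ACHN and higher in HK-2 (-1.95 ± 0.086 and 0.55 ± 0.050), as were 5 other members. Of 19 genes of MHC class I presentation 15 were higher in ACHN and 14 in HK-2, 11 in both, but 3 in both with all 24 libraries in the fit. The trimming peptidase ERAP1 read 1.08 ± 0.053 and 0.78 ± 0.053, and the proteasome subunit PSMB9 was lower in ACHN and higher in HK-2 (-0.42 ± 0.085 and 0.71 ± 0.10).

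Targets of p53, the stress-activated tumour suppressor, rose in both lines but further in ACHN. Of 26, 23 were higher in ACHN (median 1.59) and 17 in HK-2 (median 0.46), 15 were raised in both, and the difference was called with the higher effect in ACHN for 20, where 23.4% of all genes were. Of all genes 28% were higher in ACHN, 22.8% higher in HK-2 and 10.9% raised in both. Higher in ACHN and lower in HK-2 were 5.06% of all genes. CDKN1A, the cell cycle inhibitor p21, rose from 134, 143 and 132 CPM to 662, 603 and 682 in ACHN and from 50.7, 48.1 and 53.2 to 148, 144 and 153 in HK-2. The pro-apoptotic BBC3 read 2.25 ± 0.11 and 0.90 ± 0.13. Opposite moves, higher in ACHN and lower in HK-2, were called for 4 members. They were MDM2, which degrades p53 (1.68 ± 0.050 and -0.53 ± 0.059), FDXR (2.04 ± 0.062 and -0.49 ± 0.11), TP53I3 and the repair factor XPC (0.56 ± 0.062 and -0.60 ± 0.081). GADD45A, which other stress pathways also induce, was among the 3 with the lower effect in ACHN (1.23 ± 0.068 against 2.07 ± 0.079).

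Amino acid genes under the stress factor ATF4 were the list with the most members in opposite directions. Of 36 tested, 23 were lower in ACHN (median -0.39) and 30 higher in HK-2 (median 0.64), and 20 were lower in ACHN and higher in HK-2, where 4.83% of all genes were. The difference was called with the lower effect in ACHN for 29, and its median was -1.07. SLC7A5, the light chain of the large neutral amino acid transporter, held 1968, 1908 and 1982 CPM in ACHN shCtrl and 540.4, 551 and 573 in the double knockdown, against 169, 155 and 161 and 358, 333 and 343 in HK-2. ACHN thus began far above HK-2 and moved towards it, with log2 fold changes of -1.82 ± 0.041 and 1.09 ± 0.042 (difference -2.91 ± 0.059, adjusted p = 3.6e-36). Its heavy chain SLC3A2 moved the same way (-1.29 ± 0.045 and 0.61 ± 0.046).

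Enzymes for serine and asparagine followed. PHGDH, the first step of serine synthesis, stood at 136, 143 and 124 CPM and 46.4, 44.4 and 46.02 in ACHN and at 157, 149 and 153 and 307, 289 and 276 in HK-2, so that the lines moved apart from near levels. Asparagine synthetase ASNS read -0.77 ± 0.073 and 1.58 ± 0.071, and the cystine transporter SLC7A11 -0.50 ± 0.11 and 1.38 ± 0.099. ATF4 itself was lower in ACHN and higher in HK-2 (-0.26 ± 0.041 and 0.65 ± 0.041), but its ACHN call was lost with all 24 libraries in the fit (adjusted p = 0.12). DDIT3, the factor CHOP, rose in HK-2 from 14.9, 13.1 and 14.7 CPM to 61.2, 58.3 and 56.8, beside 10.9, 12.2 and 11.7 and 13.2, 11.5 and 12.1 in ACHN, and the difference passed (adjusted p = 1.4e-16). No ACHN change of DDIT3 was called, but a rise of 0.26 was with trends in transcript length and GC content taken out (adjusted p = 0.019). It shares 28.0% of its exon bases with the antisense gene MARS1, which read -0.15 ± 0.045 and 0.54 ± 0.045. Other members went against the list: ATF5 was the reverse of it (1.39 ± 0.089 and -0.99 ± 0.097), and SESN2 and CEBPB were raised in both.

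**Figure D3:**
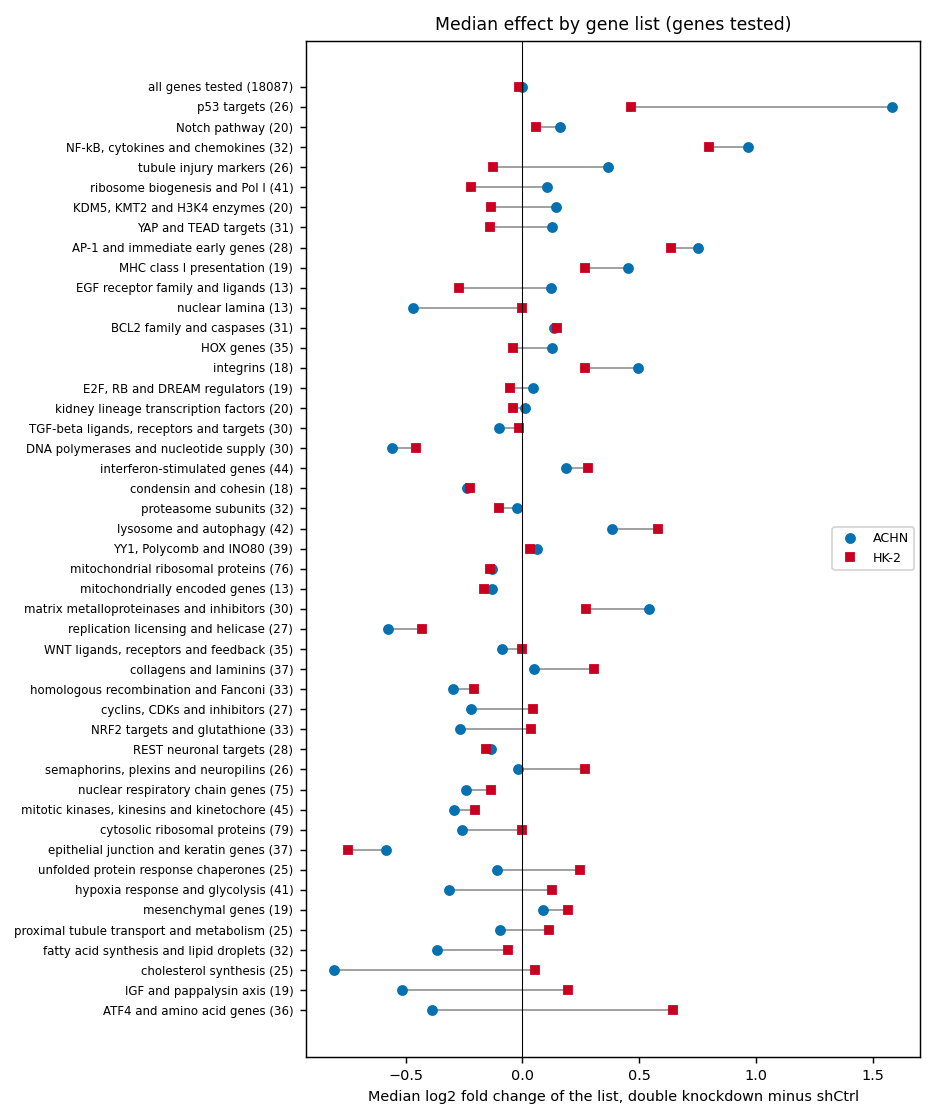
Median log2 fold change of the double knockdown for each gene list with at least 10 genes tested (number in brackets), ACHN as circles and HK-2 as squares, ordered by the median difference between the lines. ATF4 and amino acid genes lie at -0.39 in ACHN and 0.64 in HK-2, p53 targets at 1.59 and 0.46, and all genes tested at 0.00 and -0.01.

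Cholesterol synthesis fell in ACHN and showed no common direction in HK-2. Of 25 genes 24 were lower in ACHN (median -0.81), and in HK-2 7 were lower, 11 were not called and 7 were higher (median 0.06). The difference was called with the lower effect in ACHN for 22, where 22.7% of all genes were. The sterol demethylase CYP51A1 read -1.65 ± 0.12 and 0.09 ± 0.12, and the isomerase EBP -1.57 ± 0.070 and -0.05 ± 0.054. INSIG1, which retains the sterol sensor in the endoplasmic reticulum, was lower in ACHN and higher in HK-2 (-1.25 ± 0.050 and 0.51 ± 0.047). HMGCS1, whose upstream stretch is shown above with CCAAT on the other strand 100 bases before its start, was among the 7 lowered in both, and went from 114, 116 and 120.5 CPM to 30.8, 29.96 and 29.1 in ACHN and from 179.6, 188 and 176 to 64.8, 61.5 and 68.2 in HK-2. Of the 18 members with a promoter window 83.3% held CCAAT. Among 32 genes of fatty acid synthesis and lipid droplets 19 were lower and 6 higher in ACHN (median -0.37), and 11 were lower and 11 higher in HK-2 (median -0.06), where 28.7% of all genes were lower in ACHN. The desaturase SCD fell in ACHN from 1529, 1520.5 and 1573 CPM to 238, 254 and 244 (-2.65 ± 0.039) and by far less in HK-2 (-0.18 ± 0.036). CPT1A, which admits fatty acids to mitochondria for oxidation, was the reverse, with 1.41 ± 0.079 and -0.47 ± 0.10.

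Genes of the hypoxia response and of glycolysis, counted together, split between the lines. Of 41, 25 were lower in ACHN (median -0.31) and 20 higher in HK-2 (median 0.13), and 12 were lower in ACHN and higher in HK-2. The shares of all genes were 28.7%, 22.8% and 4.83%. ADM, the vasodilator peptide adrenomedullin, read 10.7, 11.7 and 12.3 CPM and 4.20, 2.87 and 3.28 in ACHN and 4.56, 3.12 and 4.25 and 12.8, 13.4 and 15.1 in HK-2, which is a crossing of the 2 lines. NDRG1, a differentiation and hypoxia gene, went from 120.1, 121 and 131 CPM to 27.2, 22.98 and 27.3 and from 141, 126 and 139 to 276, 273 and 315, with starting levels of the lines alike. EPAS1, the hypoxia factor HIF-2 alpha, fell in ACHN from 604, 609 and 630.0 CPM to 214, 208 and 216 (-1.53 ± 0.041) and rose in HK-2 by 0.23 ± 0.040, and VEGFA, its angiogenic target, read -0.60 ± 0.055 and 1.46 ± 0.054. SLC2A3, a glucose transporter, rose in both (2.17 ± 0.063 and 1.92 ± 0.048).

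The remaining genes chosen by size among those lower in ACHN and higher in HK-2 were signalling and matrix genes. EDIL3, an integrin-binding matrix protein, moved from 276, 281 and 275 CPM to 133, 146 and 136 in ACHN and from 33.6, 31.2 and 28.2 to 89.1, 97.6 and 88.6 in HK-2. The exchange factors ARHGEF4 (-1.22 ± 0.090 and 1.03 ± 0.075) and PLEKHG4B (-2.68 ± 0.11 and 1.001 ± 0.12) did likewise. While 28.7% of all genes were lower in ACHN and 22.8% higher in HK-2, the insulin-like growth factor axis had larger shares. Of its 19 genes 11 were lower in ACHN (median -0.51) and 9 higher in HK-2 (median 0.20). Among them the pappalysin inhibitor STC2 moved oppositely (-1.68 ± 0.071 and 0.74 ± 0.065), IGFBP3 fell in both but by far more in ACHN (-3.05 ± 0.050 against -0.88 ± 0.053), and IGFBP7 rose in both, with 3.19 ± 0.059 in ACHN against 0.37 ± 0.054, the latter not called with all 24 libraries in the fit (adjusted p = 0.45). DPP4, a brush border peptidase, was lower in ACHN and higher in HK-2 (-1.74 ± 0.059 and 0.94 ± 0.050), as was the kidney lineage factor LHX1 (-2.44 ± 0.092 and 0.47 ± 0.055).

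In the reverse class, higher in ACHN and lower in HK-2, TP53I3, a p53-induced oxidoreductase, stood at 28.2, 27.3 and 27.1 CPM and 90.8, 80.03 and 93.8 in ACHN and at 15.02, 13.5 and 14.6 and 5.56, 4.75 and 5.65 in HK-2. The difference of its effects was 3.11 ± 0.13 (adjusted p = 6.7e-24). CCND2, a D-type cyclin, went from 2, 12 and 4 counts in ACHN shCtrl to 20.8, 20.6 and 23.2 CPM, and from 30.9, 38.2 and 34.7 to 12.2, 13.5 and 13.2 CPM in HK-2. CCND2 thus went from almost silent in ACHN to above its level in the HK-2 double knockdown libraries.

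LRIG1, which restrains receptors of the EGF family, read 8.28, 9.15 and 6.11 CPM and 17.2, 16.1 and 15.01 in ACHN against 12.99, 12.1 and 13.7 and 5.02, 5.65 and 5.08 in HK-2, and 12.9% of its exon bases are shared with the antisense gene SLC25A26. ATF5, which shares 23.7% of its exon bases with neighbouring genes, KCNIP3, a calcium-binding channel partner (1.56 ± 0.10 and -1.23 ± 0.13), and the metalloproteinase ADAMTS7 (1.46 ± 0.067 and -0.96 ± 0.093) completed the 6. The count of 10 genes large in both lines in this class became 17 without the second HK-2 double knockdown library, 14 or 15 without the first of either line's double knockdown libraries or the second HK-2 shCtrl library, and 5 with a separate fit per line.

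**Figure D4:**
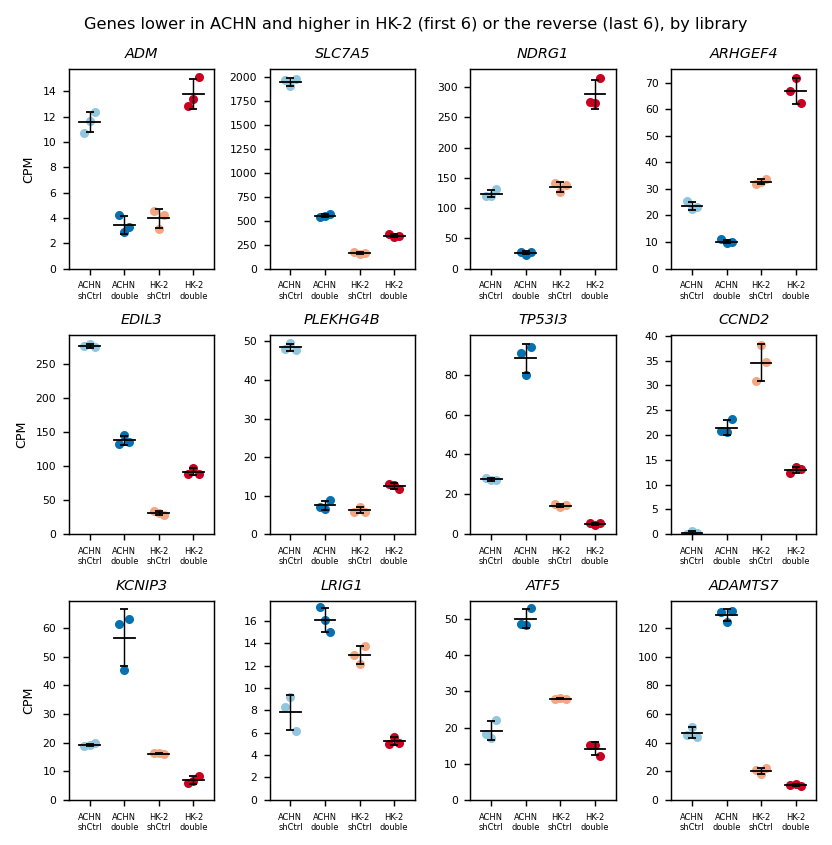
CPM (vertical axes, from 0) of the 6 genes lower in ACHN and higher in HK-2 and of the 6 with the reverse, in each of the 12 libraries; points are libraries, horizontal lines the mean and whiskers the SD of 3. The lines move towards each other without crossing for SLC7A5 and EDIL3, and move apart or cross in the other panels. ADM goes from 10.7, 11.7 and 12.3 CPM to 4.20, 2.87 and 3.28 in ACHN.

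Genes that make ribosomes were the list in this direction with the most members. Of 41 genes of ribosome biogenesis and RNA polymerase I, 17 were higher and 13 lower in ACHN (median 0.10), and in HK-2 28 were lower and 0 higher (median -0.22). By edgeR at an unadjusted p under 0.05 and by DESeq2 the count of higher genes in HK-2 was also 0. Higher in ACHN and lower in HK-2 were 12, where 5.06% of all genes were, or 6 with all 24 libraries in the fit. POLR1B, the second largest subunit of RNA polymerase I, went from 40.5, 39.5 and 40.6 CPM to 45.4, 55.3 and 54.02 in ACHN and from 38.6, 50.6 and 47.7 to 23.8, 25.2 and 25.7 in HK-2. The nucleolar factor NCL fell in both (-0.35 ± 0.040 and -0.63 ± 0.041). Among 20 histone methylation enzymes of the KDM5 and KMT2 families and their partners, 6 were higher in ACHN and lower in HK-2, including the methyltransferases KMT2D (0.58 ± 0.045 and -0.24 ± 0.045) and SETD1A (0.21 ± 0.055 and -0.54 ± 0.057), and this count was 1 with all 24 libraries in the fit. The demethylase KDM1B fell in ACHN and read close to 0 in HK-2 (-1.13 ± 0.086 and 0.00 ± 0.090).

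Most other lists were divided. Beside them, 28.7% of all genes were lower and 28% higher in ACHN, and 23.9% lower and 22.8% higher in HK-2. Of all genes 11% were lowered in both, 10.9% raised in both, 4.83% lower in ACHN and higher in HK-2, and 5.06% the reverse. Of 26 tubule injury markers 16 were higher and 8 lower in ACHN (median 0.37), and 11 were higher and 12 lower in HK-2 (median -0.12), 8 were higher in ACHN and lower in HK-2, and 8 were raised in both. The HK-2 median of that list turned to 0.026 with short genes left out. Of 31 targets of YAP and TEAD 12 were lower and 16 higher in ACHN, and 16 lower and 8 higher in HK-2; 7 were lowered in both, 6 raised in both and 7 higher in ACHN and lower in HK-2. The 33 homologous recombination and Fanconi genes were an exception, with most called lower in each line. Of them 22 were lower and 5 higher in ACHN (median -0.30), and 17 lower and 3 higher in HK-2 (median -0.21), with 13 lowered in both. Of 25 chaperones of the unfolded protein response 11 were lower and 10 higher in ACHN (median -0.11), and 5 lower and 16 higher in HK-2 (median 0.24), where 22.8% of all genes were higher. The difference was called with the lower effect in ACHN for 16, beside 22.7% of all genes. Of 33 NRF2 and glutathione genes 18 were lower and 10 higher in ACHN (median -0.27), and 10 lower and 12 higher in HK-2 (median 0.04), beside 28.7% of all genes lower in ACHN and 23.9% in HK-2, with 7 lower in ACHN and higher in HK-2. Of 44 interferon-stimulated genes 20 were higher and 12 lower in ACHN (median 0.19), and 22 higher and 10 lower in HK-2 (median 0.28), with 13 raised in both, beside 28%, 22.8% and 10.9% of all genes for the higher counts. Lists tied to the targets by earlier work were divided in ACHN. Of 39 genes of YY1, Polycomb and INO80 complexes 12 were lower and 12 higher in ACHN, near the 28.7% and 28% of all genes. In HK-2 10 of the 39 were lower and 16 higher, beside 23.9% and 22.8% of all genes. Of 32 germline genes 9 were expressed enough to be tested. Of these, 2 were lower and 2 higher in ACHN, and 1 was lower and 0 higher in HK-2.

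Some genes changed strongly in one line and stayed within 0.25 on the log2 scale in the other. PAPLN, a matrix protein, rose in ACHN from 4.48, 6.05 and 4.91 CPM to 63.04, 60.7 and 70.3 and held 78.7, 78.4 and 76.3 and 66.3, 82.3 and 65.5 in HK-2, so that ACHN came near the HK-2 level. The lipid transporter ABCA12 (3.16 ± 0.092 and 0.08 ± 0.077) and the NF-kB partner BCL3 (2.15 ± 0.067 and -0.12 ± 0.066) rose in ACHN likewise. EMB, the monocarboxylate transporter partner embigin, fell in HK-2 from 18.2, 17.95 and 14.6 CPM to 2.21, 3.15 and 4.04, with ACHN at 42.99, 47.1 and 45.3 and 50.5, 51.5 and 49.4. The integrin ITGB2 (-1.88 ± 0.12 in HK-2 and 0.04 ± 0.062 in ACHN) and the kinase NRK (-1.91 ± 0.071 and 0.24 ± 0.061, a small rise in ACHN that also passed the test, though not with all 24 libraries in the fit, adjusted p = 0.29) fell there too. The receptor NRP2 rose in HK-2 from 44.4, 48.4 and 52.7 CPM to 169, 165 and 163 and held 174, 175 and 181 and 174, 176 and 174 in ACHN, and SNTB1, a syntrophin with 10.9% of its exon bases shared with other genes, rose there by 2.06 ± 0.072, with 0.01 ± 0.088 in ACHN. The difference between the lines was called for each of these genes, as the choice required. A change of PAPLN in HK-2 was called without the second HK-2 double knockdown library (adjusted p = 0.0073). Of the genes of the matrix, COL1A1 fell in ACHN from 599, 611 and 559 CPM to 130.4, 134 and 147 and read -0.13 ± 0.062 in HK-2, beside the fall of the fibroblast marker sum given above for ACHN.

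Short transcripts were lower as a group in the ACHN double knockdown libraries. MT-ATP8, a mitochondrially encoded ATP synthase subunit of 207 bases that shares 22.2% of them with MT-ATP6, went from 370.1, 355 and 387 CPM to 10.3, 7.77 and 8.46 in ACHN and held 56.7, 56.6 and 51.04 and 42.1, 46.6 and 55.8 in HK-2, where a fall was called without the third HK-2 double knockdown library (adjusted p = 0.00036) and in 5 other alternatives (0.017 to 0.048). RPS23, a ribosomal protein gene chosen by size whose canonical transcript is 3252 bases and whose processed copies elsewhere in the genome make its counts uncertain, went from 292, 289 and 294 CPM to 14.5, 12.7 and 13.1 and held 96.9, 85.7 and 101 and 101, 97.2 and 105. Among protein-coding genes with at least 10 CPM in both lines, the 43 with a canonical transcript under 500 bases had a median log2 fold change of -1.10 in ACHN and -0.14 in HK-2. The medians were -0.32 and -0.04 for the 155 genes of 500 to under 750 bases, and 0.12 and 0.02 for the 2783 of 5000 bases or more. The part of this trend in the ACHN results was not tested. With the trends of each library in transcript length and GC content taken out, the counts of genes lowered in both, raised in both and in the opposite classes stayed within 1.5 times of those above.

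**Figure D5:**
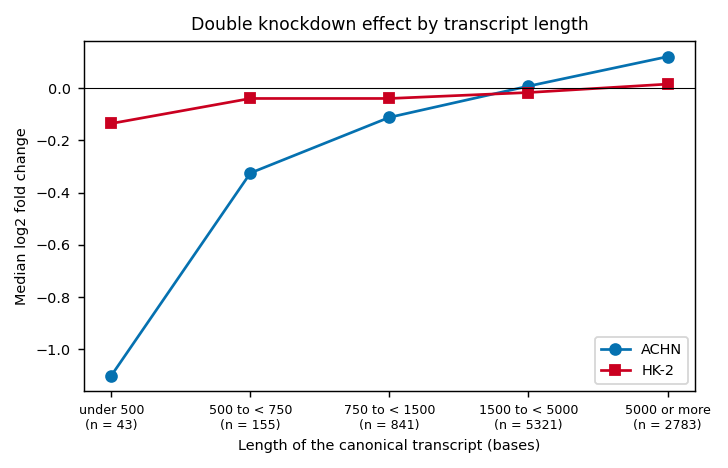
Median log2 fold change of the double knockdown (vertical axis) by length of the canonical transcript in bases (horizontal axis), for protein-coding genes with at least 10 CPM in both lines, ACHN as circles and HK-2 as squares. The ACHN median rises from -1.10 in the 43 shortest genes to 0.12 in the 2783 longest, and the HK-2 median from -0.14 to 0.02.

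Several lists held many short genes. Their counts stand beside 28.7% of all genes lower and 28% higher in ACHN, and 23.9% lower and 22.8% higher in HK-2. Of 79 cytosolic ribosomal protein genes, 42 were lower, 20 not called and 17 higher in ACHN (median -0.26), and in HK-2 6 were lower, 64 not called and 9 higher. The 36 with a transcript under 750 bases had a median of -0.25 in ACHN and the other 43 one of -0.31. RPL30 (-4.05 ± 0.11 in ACHN and -0.07 ± 0.090 in HK-2) and RPL23A (-3.44 ± 0.059 and 0.22 ± 0.055) were, like RPS23, members that fell steeply in ACHN. Of 75 nuclear genes of the respiratory chain, 41 were lower and 13 higher in ACHN (median -0.24), and 23 lower and 7 higher in HK-2 (median -0.14). In ACHN the median was -0.48 for the 35 under 750 bases and -0.15 for the other 40, and the median difference between lines, -0.17, changed sign to 0.10 with short genes left out. The promoters of this list held AANATGG in 48.4% and ATGGCGG in 30.6%. Of the 13 mitochondrially encoded genes, 7 were lower in each line, and in ACHN the 6 under 750 bases had a median of -1.21 against 0.04 for the other 7. Of the 7 metallothioneins tested, which bind zinc and copper, the 5 under 750 bases had an ACHN median of -0.92 and the other 2 one of 0.86. With the trends in transcript length and GC content taken out, the ACHN medians of collagens and laminins, proteasome subunits and metallothioneins turned from 0.05, -0.03 and -0.08 to -0.10, 0.02 and 0.22, and the median difference of mitochondrial ribosomal proteins from -0.02 to 0.13. No member of the ATF4, cholesterol, replication helicase, p53 or epithelial lists had a canonical transcript under 750 bases.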

How the data were processed

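Total RNA was taken with TRIzol, and libraries were made with a NEBNext Ultra kit and sequenced as read pairs. The authors aligned reads with HISAT2 2.0.5 to hg38 and counted them per Ensembl gene with featureCounts, for which the processing notes give version 1.5.0-p3 and the file headers 2.0.1 with no strand option, so reads of antisense genes cannot be told apart. The deposited values are raw counts per gene, without normalization. They were fitted with edgeR 4.0.16 in R 4.3.3: filterByExpr over 4 groups, TMM factors over 12 libraries, 1 quasi-likelihood model and 3 contrasts, with Benjamini-Hochberg adjustment over 18087 genes. The code was tested on simulated data. Values in CPM use TMM library sizes. Each SE was worked back from the test, as the absolute log2 fold change divided by the square root of its F statistic. Depth ran from 16675904 to 24272298 counts, which limits genes of a few counts. Alternatives used DESeq2 1.42.0, other scalings and filters, each library left out, all 24 libraries and a replicate block.

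Genes named by size were protein-coding, at 10 CPM or more in both lines, with no overlap between groups, ranked by the smaller fold change: 8 in each shared class, 6 in each opposite class and 3 for each change in 1 line alone (at least 1.5 there and under 0.25 in the other). The targets, their paralogs and the genes of the study were added, and list members were picked as examples after their values were seen. Some of these genes are not reported here. Members and lists were chosen with earlier results of these data known. Promoters came from RefSeq, GRCh38.p14.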

Additional observations from a re-analysis of the deposited data

Results flagged for a closer look

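For the genes below the double knockdown effect differed between the lines, as tested by the edgeR difference contrast with Benjamini-Hochberg adjustment, and each value is the ACHN log2 fold change minus that of HK-2. Most were chosen with a rule that used these same contrasts, so the list describes the size of the differences and is no separate evidence. No group was large enough to look for single libraries that stood apart.

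The target KDM5C had a difference of 0.71 and YY1 one of 0.99, as both fell by less in ACHN. Their paralogs gave 0.22 for KDM5A, 0.23 for KDM5B and 1.55 for YY2, of which the first was lost in 8 alternatives and the second in 2 (with all 24 libraries in the fit, adjusted p = 0.42, and without the filter on low counts, 0.057). Of the genes the study singled out, JAM3 gave -0.36, KNTC1 -0.64, SMC2 -0.21 and LMNB1 0.41.

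Among genes lowered in both lines the difference was -1.88 for FGFR2, -3.30 for CRYBG2, -0.74 for SEPTIN8 and -0.60 for ANKRD34B, and 3.21 for ZBED2, which fell further in HK-2. Among genes raised in both it was 1.15 for C3, 1.51 for CSF2, 4.96 for SIGLEC15, 0.88 for HMGA2, 0.55 for GDF15 and 0.36 for NT5E. CRYBG2, ZBED2, CSF2 and SIGLEC15 each had a group of 20 counts or fewer per library, where the fitted size depends on the prior count.

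Genes lower in ACHN and higher in HK-2 had differences of -3.54 for ADM, -2.91 for SLC7A5, -3.35 for NDRG1, -2.25 for ARHGEF4, -2.57 for EDIL3 and -3.68 for PLEKHG4B. The reverse class had 3.11 for TP53I3, 7.44 for CCND2, 2.80 for KCNIP3, 2.34 for LRIG1, 2.38 for ATF5 and 2.42 for ADAMTS7, with CCND2 at 12 counts or fewer in each ACHN shCtrl library.

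Of the genes that changed in ACHN and stayed near level in HK-2, MT-ATP8 gave -5.21, RPS23 -4.54, PAPLN 3.78, ABCA12 3.08 and BCL3 2.26. Of those that changed in HK-2 and stayed near level in ACHN, EMB gave 2.59, NRK 2.15, ITGB2 1.92, SNTB1 -2.05, DDIT3 -1.96 and NRP2 -1.79.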

How the results depend on the processing

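With all 24 libraries in the fit, genes lowered in both numbered 1296 and raised in both 1242, those lower in ACHN and higher in HK-2 486 and the reverse 424, and those with a higher effect in ACHN 2686. With a separate fit per line, 85 genes were large and lowered in both, 9 large, lower in ACHN and higher in HK-2, and 5 of the reverse. At a log2 fold change of at least 1 the 4 large classes held 309, 222, 88 and 37 genes. The causes were not tested. Leaving out 1 library gave 1825 to 1978 lowered in both, 1816 to 1932 raised in both, 807 to 871 lower in ACHN and higher in HK-2, and 706 to 875 of the reverse. The large classes then held 127 to 139, 76 to 92, 29 to 43 and 9 to 17, the 17 without the second HK-2 double knockdown library. By DESeq2 the classes held 1931, 1899, 887 and 776 genes.

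The deviations of libraries that share a replicate number correlated at 0.0013 to 0.021, beside -0.025 to 0.0093 for libraries with unlike numbers. The sources do not say whether libraries of the same number were prepared together, and such small values cannot decide it. The main fit used no pairing. With the replicate number as a block the classes held 2018, 1967, 881 and 907 genes, and the large classes 136, 82, 33 and 10.

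Over the genes named and all alternatives no effect or difference that was called changed direction. Calls of the difference lost with all 24 libraries in the fit included those of CTSD (adjusted p = 0.21), GDF15 (0.35), NT5E (0.098) and SMC2 (0.52), and calls in a single line those of LMNB1 in ACHN (0.084) and SCD in HK-2 (0.077). The difference of KDM5A was lost with all 24 libraries (0.47), with DESeq2 (0.064), without the filter on low counts (0.11) and without any ACHN shCtrl library, the second ACHN double knockdown or the first HK-2 shCtrl library (0.051 to 0.13). The alternatives with trends in transcript length and GC content taken out, or genes under 750 bases left out, were added after the data were seen. Depth limits fold changes of genes with a few counts in a group.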
